A study of Mus musculus with 4 samples.

Results

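The segment of mouse chromosome 6 from the histamine receptor gene Hrh1 to the autophagy gene Atg7 was described in 2 ChIP-seq peak lists. The first is that of the oocyte linker histone H1foo, and the other that of AE4, which the study used to detect somatic H1. The members were all peaks of both lists that touch chr6:114300000-115000000 in the coordinates of mm10. These were 242 of the 145318 peaks of the series, of which 112 came from the H1foo list (97825 peaks in all) and 130 from the AE4 list (47493 in all). Members were split, by peak centre, into the RefSeq spans of Hrh1 and Atg7, the interval between the genes, and the sequence before Hrh1 and after Atg7. The window was chosen by measured values, since the interval holds the highest peak scores of the H1foo list and a cluster of high AE4 scores. Scores, counts and positions in it are therefore given as a description, with no test.

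The chromatin for both antibodies came from embryonic stem cells (129S4/SvJae mice) with an overexpressed H1foo-GFP fusion, so the cells behind the AE4 libraries carry the transgene as well. There were 2 libraries with an in-house rabbit polyclonal antibody to H1foo and 2 with the mouse monoclonal AE4. Chromatin was cut enzymatically before precipitation. Not given in the sources are the promoter of the transgene, whether the cells are a single clone, whether AE4 binds H1foo, and any use of input DNA in peak calling. Each antibody has a single list with no value per library, so no replicate error can be given, and the depth behind the lists is unknown. Peak lists hold no expression values, so the cell type was not checked against marker genes. Just inside the edges of the window, the first and last H1foo peaks scored 56.8 and 54.2, and the first and last AE4 peaks 55.5 and 56.0. The last H1foo peak before the window ended at 114161252 with a score of 56.5, and the last AE4 peak before it ended at 113836953 with a score of 68.1. The first peaks after it began at 115000382 for H1foo (score 55.3) and 115005549 for AE4 (score 56.0).

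Linker histones bind the nucleosome where DNA enters and leaves it and help to compact chromatin. H1foo is the variant of the oocyte, and somatic variants take its place during early development. Hrh1 encodes the histamine receptor H1, a G protein-coupled receptor. Atg7 encodes the E1-like enzyme that activates Atg12 and the LC3 and GABARAP proteins, a step needed to form autophagosomes. Vgll4, which lies directly after Atg7, encodes a cofactor of TEAD transcription factors.

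RefSeq promoter windows on GRCm38.p6, which run from 250 bases before to 50 after a start site, matched 5 genes of the chromosome 6 window with 8 entries. They were 4 start sites of Hrh1 and 1 each of Atg7, Vgll4 and the noncoding Gm38875 and Gm52917. None of the 8 was touched by an H1foo peak and 1 by an AE4 peak, where over all 32851 entries 12.4% were touched by H1foo and 2.49% by AE4. The 1 is the most downstream start site of Hrh1, at position 114458522, where an AE4 peak ran from 114458447 to 114458821 with a score of 51.1, close to the lowest score of 50 in the list. The promoters of 3 start sites on the plus strand are shown so that the touched one can be set beside the CG-rich second start site of Hrh1 and the 1 listed start site of Atg7, which lies 28.0 kb inside the gene span. Capitals mark the 125 bases under the AE4 peak.
Hrh1, chr6:114458272-114458571: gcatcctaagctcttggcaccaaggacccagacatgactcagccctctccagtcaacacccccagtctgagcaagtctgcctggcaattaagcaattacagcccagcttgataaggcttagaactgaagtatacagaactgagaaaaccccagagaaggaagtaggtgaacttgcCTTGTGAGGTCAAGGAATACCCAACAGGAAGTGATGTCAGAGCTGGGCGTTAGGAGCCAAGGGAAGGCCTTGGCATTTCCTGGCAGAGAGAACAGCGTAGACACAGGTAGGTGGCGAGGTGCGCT
Hrh1, chr6:114397836-114398135: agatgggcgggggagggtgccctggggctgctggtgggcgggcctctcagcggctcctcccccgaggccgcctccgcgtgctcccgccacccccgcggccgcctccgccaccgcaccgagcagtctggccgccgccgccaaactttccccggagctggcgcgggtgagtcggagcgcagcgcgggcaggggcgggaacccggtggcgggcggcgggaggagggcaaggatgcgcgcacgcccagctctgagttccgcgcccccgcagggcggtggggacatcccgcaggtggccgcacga
Atg7, chr6:114670846-114671145: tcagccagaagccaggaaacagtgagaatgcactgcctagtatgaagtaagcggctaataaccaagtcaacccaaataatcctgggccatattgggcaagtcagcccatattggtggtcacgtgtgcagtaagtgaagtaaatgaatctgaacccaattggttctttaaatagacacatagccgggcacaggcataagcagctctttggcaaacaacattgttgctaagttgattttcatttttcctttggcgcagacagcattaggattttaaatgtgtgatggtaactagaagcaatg
The Hrh1 promoter touched by AE4 had 4 CG dinucleotides, all of them under the peak, and 52.3% G and C. The Hrh1 promoter at the second start site, position 114398086, had 39 CG dinucleotides and 78.3% G and C, the one at the first base of the gene had 28 and 71.7%, and the one of Atg7 had 4 and 42.7%. The median over all entries was 7 CG dinucleotides and 52.7% G and C. The nearest peaks to the CG-rich Hrh1 promoter were an H1foo peak 1.49 kb away and an AE4 peak 33.9 kb away. For the Atg7 promoter inside the gene they were 5.79 kb away for H1foo and 4.57 kb for AE4.

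Peaks were packed into the interval between the genes and sparse on either side. The interval, chr6:114483299-114643126, is 159.8 kb long and held 82 H1foo and 110 AE4 peaks. Hrh1, 85.4 kb long at 114397936 to 114483298, held 4 H1foo and 3 AE4 peaks. Atg7, 217.5 kb long at 114643127 to 114860604, held 7 H1foo and 8 AE4 peaks. After Atg7 the window held 19 H1foo and 9 AE4 peaks, all inside Vgll4. Before Hrh1, in 97.9 kb, neither list had a peak. Per 100 kb this made 51.3 H1foo and 68.8 AE4 peaks in the interval, against 4.69 and 3.51 in Hrh1 and 3.22 and 3.68 in Atg7.

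**Figure D1:**
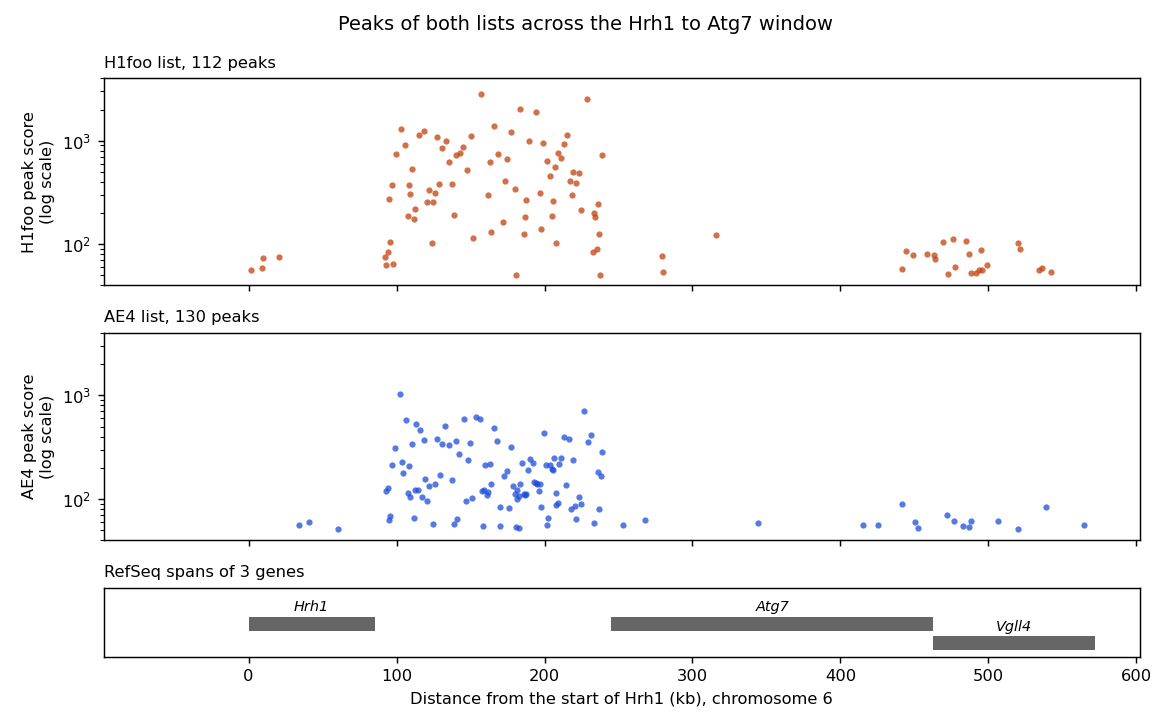
Score of every peak of the window (log scale) against the distance of its centre from the start of Hrh1 in kb, for the H1foo list above and the AE4 list below, with the RefSeq spans of Hrh1, Atg7 and Vgll4. Each point is 1 peak. The interval between Hrh1 and Atg7 reaches 2839 for H1foo and 1043 for AE4, and the scattered points on either side reach at most 122.8 for H1foo and 89.3 for AE4.

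Peaks covered 82.2% of the bases of the interval in the H1foo list, against 69.4% for AE4. In Hrh1 the covered shares were 2.20% and 1.36%, in Atg7 1.79% and 1.69%, and after Atg7 7.87% and 2.81%. The covered share thus dropped at both ends of the interval in both lists. The relation of the lists in number also turned round. The interval had 0.745 H1foo peaks for each AE4 peak, and the rest of the window had 30 H1foo and 20 AE4 peaks. Within that rest, Atg7 also had fewer H1foo than AE4 peaks, 7 against 8, and the sequence after Atg7 had 19 against 9. In the whole lists the ratio was 2.06, counted on the 21 assembled chromosomes, as in all whole-list values below. Counted in covered bases, H1foo stayed above AE4 in the interval, by 1.18 times, against 2.54 times in the whole lists.

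**Figure D2:**
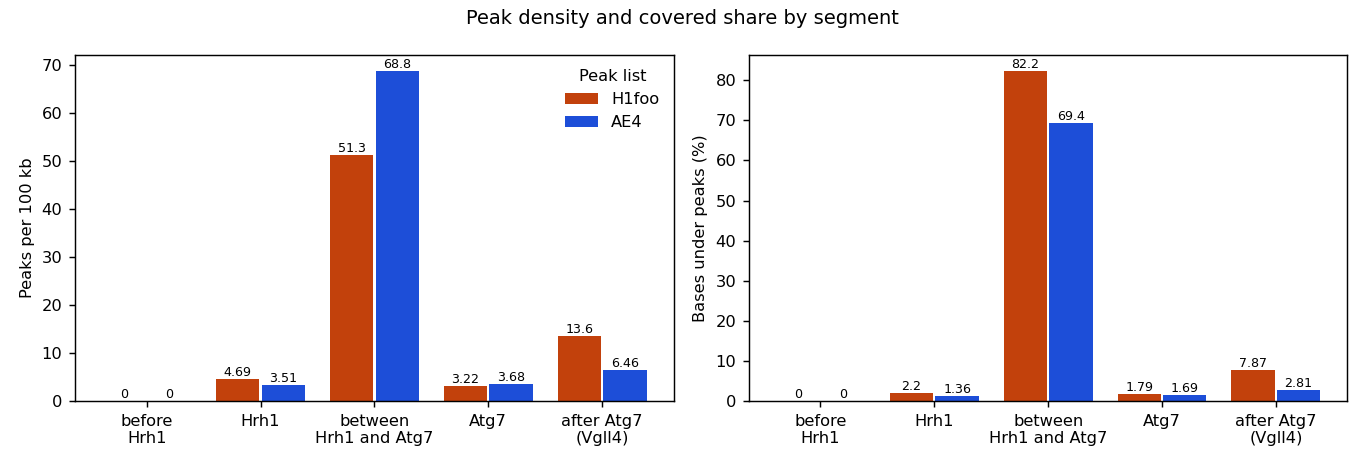
Peaks per 100 kb (left) and percent of bases under peaks (right) in 5 segments of the window, with H1foo bars left of AE4 bars. Both lists are highest between Hrh1 and Atg7, where the H1foo bar is below the AE4 bar in number of peaks (51.3 against 68.8 per 100 kb) and above it in covered bases (82.2% against 69.4%).

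The peaks of the interval formed a single block with nearly the same ends in both lists. In the H1foo list it ran from 114489908 to 114637797, or 147890 bp, and in the AE4 list from 114490412 to 114637625, or 147214 bp. The AE4 block began 504 bp after the H1foo block and ended 172 bp before it. The H1foo block began 6.61 kb past the end of Hrh1 and stopped 5.33 kb short of Atg7. Outside the block, the next H1foo peak lay 71.0 kb away on the Hrh1 side and 39.1 kb away on the Atg7 side. For AE4 these distances were 31.6 kb and 13.1 kb. Neither gene was touched by the block, and no protein-coding gene of the RefSeq table lies in it. No input or copy number values were analysed here, so the part of DNA copy number in the scores, coverage and overlap of the block was not tested.

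Within the block the gaps between neighbouring peaks were short. The median H1foo gap was 123 bp, with a range of 3 to 1085 bp over 81 gaps. In the AE4 list the median was 177 bp, with a range of 7 to 1975 bp over 109 gaps. Gaps of 100 bp or less made up 34 of the 81 H1foo gaps and 32 of the 109 AE4 gaps. The median gap was 2596 bp in the whole H1foo list and 7882.5 bp in the whole AE4 list. In Atg7, a gene of 217.5 kb, the longest gap was 125110 bp for H1foo and 75852 bp for AE4.

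**Figure D3:**
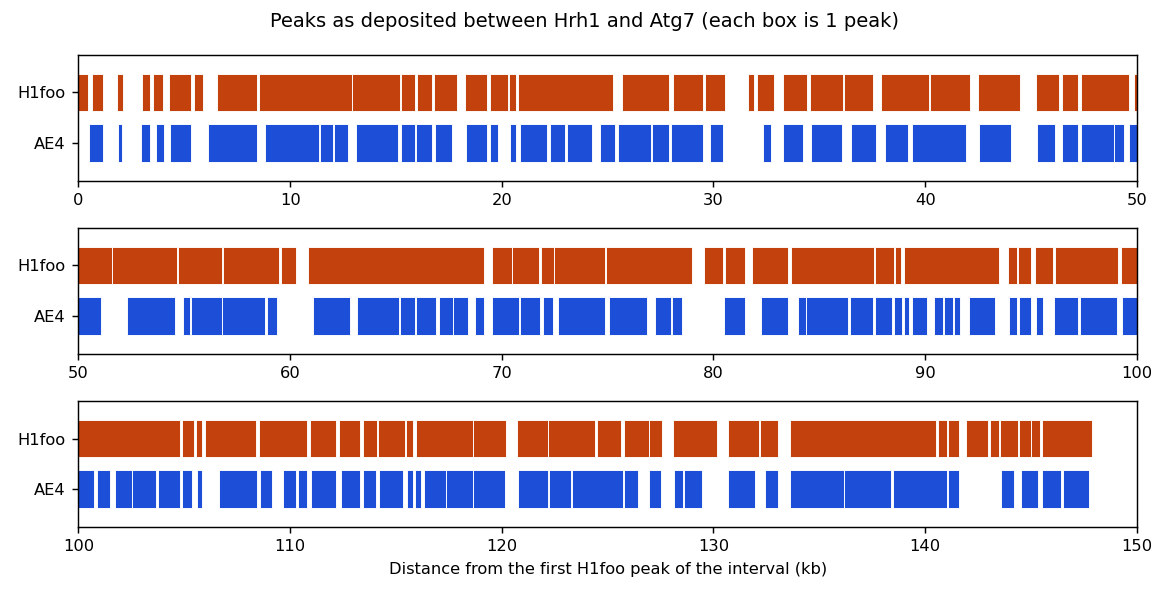
Peaks of the H1foo list (upper row of each panel) and of the AE4 list (lower row) as boxes drawn to scale, against the distance in kb from the first H1foo peak between Hrh1 and Atg7. The block of 147.9 kb is split over 3 panels. Boxes of both lists fill most of each panel, several AE4 boxes can lie under 1 H1foo box, and many breaks stand at the same place in both rows.

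Of the 147.9 kb from the first to the last base of the block, 108.7 kb or 73.5% lay under peaks of both lists. H1foo alone covered 22.7 kb or 15.4%, AE4 alone 2.27 kb or 1.53%, and neither list 14.2 kb or 9.60%. Of the bases under AE4 peaks, 97.96% were also under an H1foo peak, against 50.9% in the whole AE4 list. Of the bases under H1foo peaks, 82.7% were also under an AE4 peak, against 20.01% in the whole H1foo list. The uncovered bases fell into 76 stretches, of which 10 were at least 500 bp long. The longest was 1085 bp at 114520447 to 114521531, followed by 859 bp at 114491989 to 114492847 and 751 bp at 114534391 to 114535141.

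Coverage was high along the whole block, and the lowest full bin of each list lay in the first 40 kb from its Hrh1 end. In 14 full bins of 10 kb counted from the first H1foo peak, H1foo covered from 69.1% to 97.4% of the bases, with a median of 91.2%. AE4 covered from 61.0% to 88.2%, with a median of 76.7%. H1foo covered more than AE4 in 14 of 14 bins. The lowest H1foo bin was the first, and the fourth, from 30 to 40 kb, was the lowest for AE4 and the second lowest for H1foo at 78.2%. The highest H1foo bin was the one from 50 to 60 kb, and the highest AE4 bin the one from 110 to 120 kb. The last, incomplete bin at the Atg7 end was covered to 91.0% by H1foo and 63.9% by AE4.

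The block was set beside the longest runs of close peaks in the series. The window was chosen by the scores of these lists, so the place of the block among the runs is a description. Neighbouring peaks of a list were joined over gaps of up to 2000 bp, a limit set after the gaps of the block had been seen. In the AE4 list the block was the longest of 35730 runs, 2.77 times as long as the next, which spanned 53.2 kb on chromosome 8 in Gse1. In the H1foo list it was the third longest of 54628 runs. The longer H1foo runs spanned 182.8 kb on chromosome 5, over 8 genes that include Gpr146 and Gper1, and 153.6 kb on chromosome 8, over 12 genes that include Rab3a and Mast3. The block was covered to 88.9%, and these runs to 77.0% and 77.8%. The block was the only one of the 5 longest runs in either list that held no protein-coding gene. With gaps of up to 1000 bp it broke into pieces, the longest 116.3 kb for H1foo and 49.0 kb for AE4, and these were the longest runs of their lists. With gaps of up to 5000 bp it was 27th for H1foo and 3rd for AE4.

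**Figure D4:**
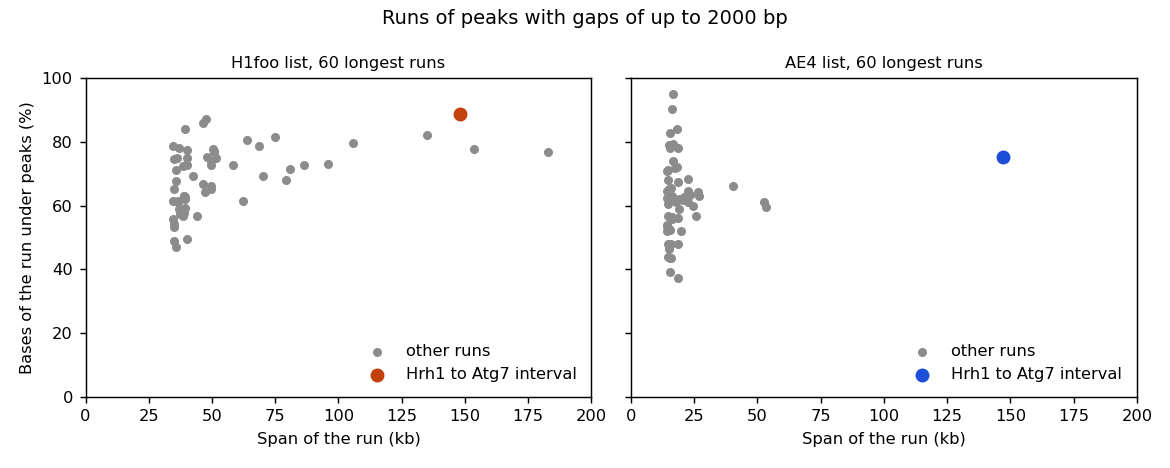
Span of the 60 longest runs of peaks in each list in kb against the percent of the run's bases under peaks, with peaks joined over gaps of up to 2000 bp. Coloured points mark the Hrh1 to Atg7 interval, at 147.9 kb and 88.9% in the H1foo list and 147.2 kb and 75.4% in the AE4 list. Only 2 H1foo runs and no AE4 run lie to the right of it.

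Peaks of the interval were wide and high in score. The H1foo widths ran from 266 to 8318 bp with a median of 1092.5 bp, 1.95 times the median of the whole list. The AE4 widths ran from 188 to 2542 bp with a median of 826 bp, 1.77 times the median of its list. Peaks of at least 2 kb numbered 23 of 82 or 28.0% for H1foo, against 1.37% of its whole list, and 10 of 110 or 9.09% for AE4, against 0.516%. In the rest of the window the widest peak was 986 bp in the H1foo list and 703 bp in the AE4 list. Scores, on which the window was selected, had a median of 379.6 for H1foo and 141.8 for AE4 in the interval, and the lowest were 50.4 and 52.7. Among the 100 highest scores of each list, 21 of H1foo and 13 of AE4 fell in the interval, and 100 peaks are 0.102% and 0.211% of the lists. Of the 1000 highest scores it held 43 and 47. Width and score went together across the peaks of the interval, with a Spearman's rho of 0.915 over 82 H1foo peaks and 0.758 over 110 AE4 peaks, against 0.757 and 0.669 in the whole lists. Neighbouring peaks share a region and a library pool, so these are descriptions. Because the window was selected on score and width went with score in the whole lists, the widths are not independent of the selection.

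The H1foo peak with the highest score of its list, 2839, was also the widest of the interval, at 114550760 to 114559077. It overlapped 7 AE4 peaks with scores of 54.8 to 614.7, which covered 86.4% of it. The H1foo peak with the second highest score, 2518, lay at 114623501 to 114630414 near the Atg7 end of the block and overlapped 3 AE4 peaks, which covered 98.3% of it. The peaks with ranks 4 and 5, at 114578915 to 114583381 (score 2039) and 114589181 to 114594706 (score 1914), overlapped 6 and 5 AE4 peaks. The fifth H1foo peak by score in the interval, at 114562388 to 114564785 (score 1380), overlapped a single AE4 peak that covered 93.0% of it.

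For AE4 the highest score of the interval was 1043, rank 9 of its list, at 114498723 to 114501253 near the Hrh1 end. This peak lay wholly inside the H1foo peak at 114498455 to 114502818, whose score of 1313 was rank 12. The AE4 peak at 114623515 to 114626056 scored 707.6, rank 25, and lay inside the H1foo peak of rank 2. The AE4 peaks at 114550985 to 114552742 (score 614.7) and 114553083 to 114555041 (score 594.8) both lay inside the H1foo peak of rank 1. The fifth, at 114542181 to 114544475, scored 592.7 and lay inside an H1foo peak of rank 64. The order of these highest scores thus differed between the lists, and the highest AE4 peak did not fall in the highest H1foo peak.

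Every AE4 peak of the interval overlapped an H1foo peak by at least 1 bp, 110 of 110, against 51.2% of the whole AE4 list. An AE4 peak was overlapped by 75 of the 82 H1foo peaks or 91.5%, against 24.1% of the whole H1foo list. The 7 H1foo peaks without an AE4 peak were 296 to 1043 bp wide and scored 65.1 to 185.1. They included the first peak of the block, at 114489908 to 114490361. In the rest of the window the overlap was lower, at 5 of 30 or 16.7% of H1foo peaks and 5 of 20 or 25.0% of AE4 peaks. The peaks of the interval were also the wider and closer ones, as given above, and the part of width and spacing in the overlap was not tested.

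Wide H1foo peaks took in several AE4 peaks. Of the 82 H1foo peaks, 55 overlapped 1 AE4 peak, 10 overlapped 2, 6 overlapped 3, and 1 each overlapped 4, 5, 6 and 7. The median H1foo width was 943 bp in the group with 1 AE4 peak and 2668.5 bp in the 20 peaks with 2 or more. The share with 2 or more AE4 peaks was 24.4% in the interval, against 1.67% in the whole H1foo list. Of the 110 AE4 peaks, 105 overlapped a single H1foo peak and 5 overlapped 2. Of the 115 overlapping pairs, 76 or 66.1% had the AE4 peak wholly inside the H1foo peak, against 40.5% of pairs in the whole lists, and 7 had the H1foo peak wholly inside the AE4 peak.

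Where a single peak met a single peak, the edges often stood close together. The interval held 49 such 1-to-1 pairs, with a median distance between centres of 48.5 bp (against 89.5 bp for such pairs of the whole lists), between starts of 41 bp and between ends of 30 bp. Both edges were within 50 bp of each other in 15 of 49 pairs or 30.6%, against 11.0% of the 20228 such pairs in the series. The closest pair was an H1foo peak at 114494208 to 114495208 and an AE4 peak at 114494218 to 114495202, whose starts differed by 10 bp. The scores of the 49 pairs had a Spearman's rho of 0.792, as a description across neighbouring peaks. Over all 120 pairs of the window the median distance between centres was 288.5 bp, against 125 bp over the 25402 pairs of the whole lists.

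**Figure D5:**
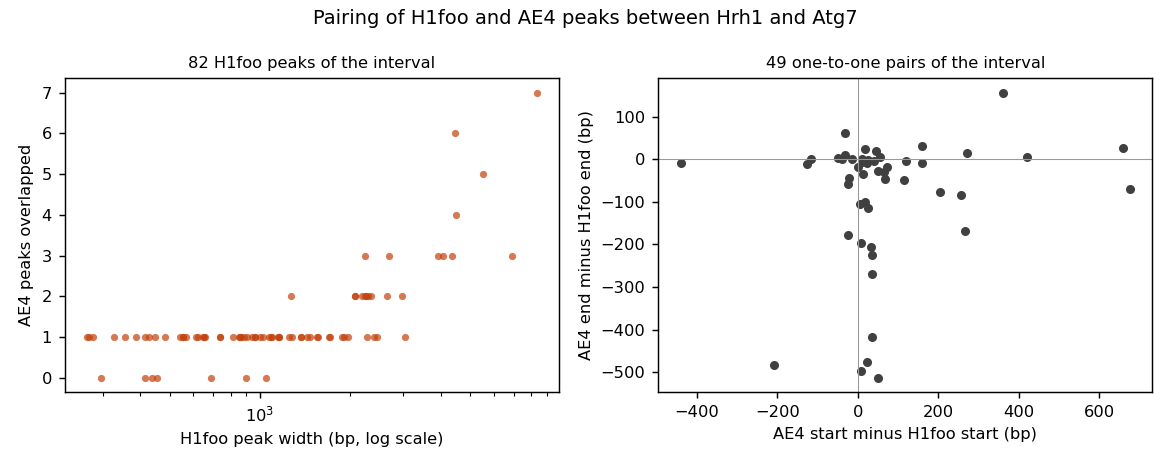
Left, the number of AE4 peaks overlapped by each of the 82 H1foo peaks of the interval against the width of the H1foo peak in bp (log scale). Right, for the 49 1-to-1 pairs, the AE4 end minus the H1foo end against the AE4 start minus the H1foo start in bp. H1foo peaks with 2 or more AE4 peaks are the wide ones, and most pairs lie near 0 on at least 1 axis.

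Hrh1 held 7 scattered peaks. The 4 H1foo peaks had their centres 1.82, 9.24, 9.84 and 20.7 kb from the start of the gene, with scores of 56.8, 59.0, 73.6 and 76.0. The 3 AE4 peaks lay deeper, at 34.3, 40.7 and 60.7 kb, with scores of 55.5, 59.9 and 51.1. No pair overlapped, where 24.1% of all H1foo and 51.2% of all AE4 peaks did, a count too small to set Hrh1 apart. All 7 peaks were between 262 and 697 bp wide. The H1foo peak at 114399622 to 114399883 was the only peak within 2 kb of either end of Hrh1. At 4.69 H1foo and 3.51 AE4 peaks per 100 kb, Hrh1 was denser than 59.2% and 67.5% of the 10008 protein-coding genes of at least 20 kb. The density inside Hrh1 was thus within the middle range of long genes, next to the block.

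In Atg7, 1 pair overlapped among 7 H1foo and 8 AE4 peaks, or 14.3% and 12.5%, against 24.1% and 51.2% of the whole lists. It was the H1foo peak at 114839538 to 114839793 (score 57.1) with the AE4 peak at 114838970 to 114839672, which was the highest AE4 score (89.3) and the widest AE4 peak of the gene at 703 bp. The highest and widest H1foo peak of Atg7 stood alone at 114713442 to 114714427, with a score of 122.8 and a width of 986 bp. The other H1foo peaks of Atg7 scored 53.9 to 86.0 and the other AE4 peaks 52.1 to 62.6. From position 114838970 to the end of the gene lay 4 of the H1foo and 3 of the AE4 peaks. No peak lay within 2 kb of the low end of Atg7, the side that faces the block. By density Atg7 was above 51.7% of long genes for H1foo and 68.4% for AE4.

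Within 2 kb of the far end of Atg7, the side away from the block, only H1foo had peaks. In the RefSeq promoter table Atg7 is on the plus strand and Vgll4 on the minus strand, and their spans end 17 bp apart. The H1foo peak at 114860653 to 114861357 (score 78.3) began 49 bp past the end of Atg7 and lay inside the end of Vgll4. A second H1foo peak followed at 114861494 to 114862028 (score 71.6). The nearest AE4 peak to this junction was 8.82 kb away. Over its 109.4 kb Vgll4 held 19 H1foo and 9 AE4 peaks, or 17.4 and 8.23 per 100 kb, more than 81.7% and 83.2% of long genes. Its highest H1foo score was 112.7, at 114873914 to 114874674, and its widest H1foo peak 868 bp, at 114917720 to 114918587. Its highest AE4 score was 84.4, at 114936562 to 114937010, and its widest AE4 peak 489 bp, at 114884378 to 114884866. Of the Vgll4 peaks, 4 of 19 H1foo (21.1%) and 4 of 9 AE4 peaks (44.4%) overlapped, near the whole-list shares of 24.1% and 51.2%.

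The interval was covered to 82.2% by H1foo and 69.4% by AE4. As a whole, 2 far longer parts of chromosome 8 with many peaks were filled less tightly. In the distal block from 119 to 124 Mb peaks covered 42.5% of bases for H1foo and 23.5% for AE4. In the block from 69 to 74 Mb they covered 23.3% and 13.7%. AE4 peaks overlapped H1foo in 100% of cases in the interval, against 85.6% and 84.8% in these blocks. H1foo peaks overlapped AE4 in 91.5% of cases in the interval, against 56.1% and 57.3%. Overlap needed only 1 bp, and peaks covered more of the interval than of the blocks. The part of this coverage in the overlap shares was not tested. The blocks also held wider and closer peaks than the whole lists. Median widths there were 807 and 875 bp for H1foo (560 bp in the list) and 672 and 746 bp for AE4 (466 bp). H1foo peaks of at least 2 kb were 190 of 2001 and 117 of 995, and AE4 peaks 39 of 1477 and 28 of 775. Median gaps were 613 and 642.5 bp for H1foo and 1185.5 and 1378 bp for AE4. For each AE4 peak there were 0.745 H1foo peaks in the interval, against 1.35 and 1.28 in the blocks. The interval is 159.8 kb long and each block 5000 kb, and the differences were not tested. Runs of peaks inside the blocks, joined over gaps of up to 2000 bp, came closer to it. The longest H1foo runs spanned 134.9 kb in the distal block and 153.6 kb in the other, covered to 82.2% and 77.8%. The longest AE4 runs, of 53.2 kb and 52.7 kb, were covered to 59.7% and 61.1%. The runs of the interval were covered to 88.9% for H1foo and 75.4% for AE4. Some shorter runs were filled more tightly. An AE4 run of 16.6 kb in the distal block was covered to 79.5%. With gaps of up to 1000 bp, an H1foo run of 22.3 kb in that block was covered to 95.2%. The longest H1foo piece of the interval was then covered to 90.7%.

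Pathway lists that include Hrh1 and Atg7 themselves were set beside all genes. Of 10 genes of histamine synthesis, transport, breakdown and reception, 5 held an H1foo peak centre and 4 an AE4 peak centre, where 55.5% and 42.3% of the 21774 protein-coding genes did. The densest was Slc29a4, a monoamine transporter, with 66.6 H1foo and 9.996 AE4 peaks per 100 kb. Hrh3, a histamine receptor of neurons, had 39.8 and 0, and Hdc, the enzyme that makes histamine, had 13.2 and 9.88. Hrh2 had 6.79 H1foo and 4.52 AE4 peaks per 100 kb. Without Hrh1 itself, 4 of 9 genes or 44.4% held an H1foo peak and 3 of 9 or 33.3% an AE4 peak. These counts are too small to set the histamine genes apart from the shares of all genes.

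Of 20 genes of the autophagy conjugation machinery and its partners, 16 held an H1foo peak and 14 an AE4 peak. Without Atg7 itself these were 15 and 13 of 19, or 78.9% and 68.4%. Of all protein-coding genes, 55.5% held an H1foo peak and 42.3% an AE4 peak. The list is small, and the difference from all genes was not tested. Map1lc3b, an LC3 gene, had 60.1 H1foo and 84.1 AE4 peaks per 100 kb, with 5 and 7 peaks in 8.32 kb. Map1lc3a had 58.5 and 0, from a single H1foo peak in 1.71 kb. Atg16l2 had 43.9 and 12.5, and Ulk1, which encodes a kinase that starts autophagy, had 35.1 and 23.4. Gabarap had 0 and 27.9, from a single AE4 peak. Median density over the 20 genes was 5.13 H1foo and 2.88 AE4 peaks per 100 kb, against 2.08 and 0 over all genes. Differences in length and position between genes were not taken into account in these counts.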

How the data were processed

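The 4 ChIP-seq libraries of mouse embryonic stem cells were grouped by antibody, 2 for H1foo and 2 for AE4. The submitters' processing notes name Bowtie 1.1.2 and the build mm10. Peaks were called with MACS, per the file headers, without a version. For each antibody the authors deposited a single list, in which every peak has a score. The scale of the score is not named and its lowest value is 50. The sources do not say how libraries were combined or if an input was used. The build is from strain C57BL/6J and the cells are 129S4/SvJae.

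Starts were converted to positions counted from 1. Overlap meant at least 1 bp in common. Peaks were placed in segments by centre. Gene spans and promoter sequences were those of NCBI RefSeq on GRCm38.p6, in which 21774 protein-coding genes lie on assembled chromosomes. The peaks named were the 5 highest scores of the interval in each list, the highest and widest of the other segments, and those within 2 kb of an end of Hrh1 or Atg7. Pathway genes named were the 3 densest of each pathway in each list. The members, gene lists and rules were chosen with earlier results of these data known. With 1 list per antibody no test was made. Some genes in and near the window are not reported here. Calculations used Python 3.11.15 with pandas 2.3.3, numpy 2.4.6 and scipy 1.17.1, and the overlap and joining steps were checked on intervals with known answers. The alternatives were other definitions of overlap, a score of at least 100, merged peaks, other segment and gene rules, other top ranks and other gap limits.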

Additional observations from a re-analysis of the deposited data

How the results depend on the processing

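Of 70 alternatives to 25 values, 44 stayed close to the value given (a count within 1.5 times, a share within its exact 95% binomial interval, which covers counting error only, a median within 1 SD of the values) and 26 did not. A score limit or merging could not move the counts of 0 before Hrh1, which are among those that stayed close. The overlap in the whole window depended on its definition and on the interval. The share of H1foo peaks with an AE4 peak was 71.4%, and 55.4% with at least 50% of each peak in common, 41.1% for 200 bp around each centre and 16.7% without the interval. For AE4 peaks it was 88.5%, and 47.7%, 35.4% and 25.0% in these settings, and 97.6% with scores of at least 100.

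With scores of at least 100, Hrh1 held 0 H1foo and 0 AE4 peaks, Atg7 held 1 and 0, and the sequence after Atg7 4 and 0. Merging peaks closer than 200 bp left 24 H1foo and 54 AE4 peaks in the interval. With scores of at least 100 the median AE4 gap was 340 bp, and for reciprocal nearest centres within 1 kb the median centre distance was 101 bp, both within 1 SD though moved by over 1.5 times. Distances between neighbouring centres had a median of 1525.5 bp for H1foo and 1208 bp for AE4, and outside the interval the median gap was 2812 and 13079 bp. Of the 50 highest H1foo scores 32.0% lay in the interval, and of the 1000 highest 4.30% for H1foo and 4.70% for AE4. With scores of at least 100, 8 autophagy genes held an H1foo peak and 5 an AE4 peak, and 0 histamine genes an AE4 peak. The share of all genes at this score is not given, so these counts have no background. With gaps of up to 1000 bp the AE4 run was 49.0 kb. The settings without the interval and the gap limits were chosen after the data were seen. The causes were not tested.

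No paired analysis was possible because the lists hold no value per library. Read depth is unknown, so a missing peak does not measure a lack of binding.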

Other observations

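Genes beyond the window differed in density. On the Hrh1 side, the GABA transporter gene Slc6a11 held 1 H1foo and 0 AE4 peaks in 118.6 kb, or 0.843 and 0 per 100 kb, and the calcium pump gene Atp2b2 held 11 and 5 in 298.8 kb, or 3.68 and 1.67 per 100 kb. On the Atg7 side, Tamm41, a gene of cardiolipin synthesis, held 2 H1foo and 3 AE4 peaks in 33.5 kb, or 5.96 and 8.94 per 100 kb. Syn2, which encodes a synaptic vesicle protein, held 0 and 0 in 147.7 kb, and Pparg, a nuclear receptor of fat cells, held 0 and 2 in 129.5 kb, or 0 and 1.54 per 100 kb. Sec13, of the nuclear pore and COPII coat, held 3 and 1 in 12.6 kb, or 23.8 and 7.92 per 100 kb. The median over genes of at least 20 kb was 2.96 H1foo and 1.14 AE4 peaks per 100 kb. These 6 genes were picked by position around the window after the peaks had been seen.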
